A study of Punica granatum with 14 samples.

Results

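The genes described here are the 100 pomegranate genes with the highest mean level in untreated leaves, out of 27893 genes in the table of raw counts. Level is given as CPM, a gene's count divided by the total of its library and multiplied by 1e6, and the mean was taken over both libraries of untreated plants (CK). The values that chose these genes are therefore their CK values, and every comparison with CK is given as a description without a claim. All 100 genes, called members from here on, passed the filter on low counts that left 19478 genes for testing. The last members inside the list were LOC116199749 at 807.6 CPM and LOC116214672 at 805.6 CPM in CK, and the first genes outside were LOC116204435 at 805.2 CPM and LOC116196647 at 802.6 CPM.

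RNA-seq was performed on leaves of wild-type 'Hongmanao' pomegranate (Punica granatum) seedlings, raised in tissue culture from stem tips on WPM medium with the auxin IBA, in all 7 conditions alike. The seedlings received distilled water (CK), paclobutrazol at 6 or 8 mg/L, B9 (daminozide) at 6 or 8 mg/L, or mannitol at 2.5 or 15 g/L, and leaves were sampled after 90 days. There were 2 plants per condition and 14 libraries in all, whose total counts ranged from 15790717 to 28385703. Plants 1 and 2 of a condition are named by the replicate number in their labels.

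Paclobutrazol, a triazole, and B9 are growth retardants that act against gibberellin synthesis, the former at the oxidation of ent-kaurene and the latter at late steps of the pathway. Mannitol is a sugar alcohol that lowers the water potential of a culture medium. In green leaves a small set of nuclear genes, those of the small subunit of Rubisco and of the chlorophyll-binding antenna proteins among them, commonly makes up a large part of the polyadenylated RNA, so the share of the most abundant genes describes how concentrated a leaf transcriptome is. The symbols of the members are numbered loci, and the gene table used here gives their biotype and length but pairs them with no product name. No member is therefore given a function, and the leaf markers among them could not be checked by name.

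The 100 members took 23.0% ± 0.594 (SD, n = 2) of all counts in CK, with 23.4% in plant 1 and 22.6% in plant 2. The Wilson 95% interval of each library's share reached at most 0.0202 percentage points to either side, which covers counting error only. The 10 highest members alone took 7.85%, those of rank 11 to 50 took 9.64%, and those of rank 51 to 100 took 5.54%. All members were annotated as protein-coding. The 1474 genes of rRNA biotype together took between 0.0589% and 0.498% of the counts of a library, with none of them among the members.

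The share of the members was lowest under 6 mg/L B9 and highest under 15 g/L mannitol. The 6 mg/L B9 libraries had 19.1% and 16.1%, with a mean of 17.6% ± 2.17 (SD, n = 2). The 8 mg/L B9 libraries had 21.3% and 19.97%, with a mean of 20.6% ± 0.917. All 4 B9 libraries lay below both CK libraries on library totals.

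Under 15 g/L mannitol the shares were 26.04% and 28.01%, with a mean of 27.03% ± 1.40 (SD, n = 2), and both lay above CK. Under 2.5 g/L mannitol they were 21.6% and 22.1%, with a mean of 21.8% ± 0.385, and both lay below CK. On library totals the 2 doses of mannitol thus stood on opposite sides of CK, while on totals scaled by TMM, described below, both means lay above it (0.712% and 35.2% relative to CK).

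On library totals the paclobutrazol libraries overlapped CK. At 6 mg/L the plants had 23.9% and 20.2%, with a mean of 22.02% ± 2.61 (SD, n = 2), and at 8 mg/L they had 22.7% and 21.4%, with a mean of 22.1% ± 0.978. Plant 1 lay above both CK libraries at 6 mg/L and between them at 8 mg/L, and plant 2 lay below CK at both doses.

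A share depends on what it is divided by. On totals scaled by TMM, a factor that sets the bulk of all genes level between libraries, the share relative to CK turned from -5.18% to 0.712% under 2.5 g/L mannitol, from -4.38% to 8.69% under 6 mg/L paclobutrazol and from -4.22% to 6.65% under 8 mg/L paclobutrazol. It kept its sign for 6 mg/L B9, for 8 mg/L B9 (-10.4% and -3.55%) and for 15 g/L mannitol (17.4% and 35.2%). On that scale CK had 21.8% and 20.7%, 8 mg/L B9 had 21.1% and 19.9%, and 2.5 g/L mannitol had 20.7% and 22.1%, so both of these treatments overlapped CK. The paclobutrazol libraries had 23.8% and 22.3% at 6 mg/L and 23.0% and 22.3% at 8 mg/L, all above both CK libraries. The choice of the members in CK has a size of its own: 100 genes chosen in CK plant 1 took 23.5% there and 22.5% in CK plant 2, and those chosen in CK plant 2 took 22.7% there and 23.2% in CK plant 1.

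**Figure D1:**
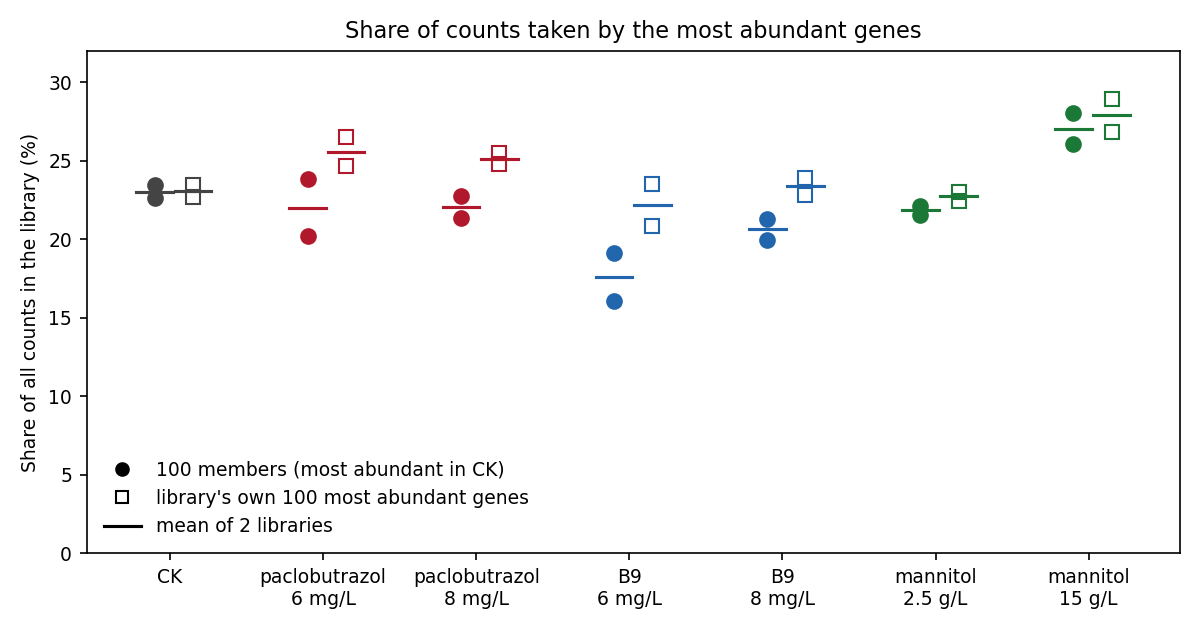
Share of all counts in each library (y axis, %) by condition (x axis, 2 libraries each), for the 100 members (filled circles) and for each library's own 100 most abundant genes (open squares), with lines at the means. The member share is lowest under 6 mg/L B9 (19.1% and 16.1%) and highest under 15 g/L mannitol (26.04% and 28.01%), and the squares stand far above the circles in plant 2 of 6 mg/L paclobutrazol (26.5% against 20.2%).

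Each library's own 100 most abundant genes, chosen again in every library, took between 20.8% and 28.9% of its counts. Under paclobutrazol these shares were 24.6% and 26.5% at 6 mg/L and 24.8% and 25.5% at 8 mg/L, above the 23.5% and 22.7% of CK. Under 8 mg/L B9 they were 23.9% and 22.8%, and under 6 mg/L B9 23.5% and 20.8%. Under mannitol they were 22.4% and 23.0% at 2.5 g/L and 26.8% and 28.9% at 15 g/L. The leaf transcriptomes under paclobutrazol were thus as concentrated as those of CK or more so, in part on other genes. The genes that followed the members down to rank 1000 in CK took between 25.4% and 26.4% in every condition mean.

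The share of the members was compared between the chemicals, 4 libraries each, with an exact two-sided permutation test. Its smallest possible p is 0.0286. CK is not a side of this test, but it chose the members. A chemical whose leaves stayed nearer CK can thus show a larger share, and this was not tested apart. The 4 libraries of a chemical pool both of its doses, so the spread between them holds dose as well as plant. The mean was 22.03% under paclobutrazol, 19.1% under B9 and 24.4% under mannitol. B9 differed from mannitol by -5.32 percentage points, with all 4 libraries below all 4 of mannitol on library totals (exact p = 0.0286, 0.0857 adjusted over the 3 comparisons). Paclobutrazol lay above B9 by 2.92 points (exact p = 0.0571, adjusted 0.0857) and differed from mannitol by -2.40 points (exact p = 0.257, adjusted 0.257). None passed the threshold of 0.05 after adjustment, which 1 comparison at the smallest p could not reach on its own. With the 50 most abundant genes in place of 100, the differences of 3.10 points between paclobutrazol and B9 and -4.45 points between B9 and mannitol did pass. On TMM-scaled totals plant 1 of 8 mg/L B9 (21.1%) lay above plant 1 of 2.5 g/L mannitol (20.7%), and the difference of B9 from mannitol was -6.21 points (exact p = 0.0571, adjusted 0.0857). There all 4 paclobutrazol libraries lay above all 4 of B9, by 4.03 points in the mean (exact p = 0.0286, adjusted 0.0857). For the libraries' own 100 genes, paclobutrazol lay 2.58 points above B9 (exact p = 0.0286, adjusted 0.0857). On these lists B9 differed from mannitol by -2.53 points (exact p = 0.257, adjusted 0.386), a smaller difference than for the members. Paclobutrazol differed from mannitol by 0.0495 points there (exact p = 0.971, adjusted 0.971).

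The net changes from CK were made up of larger gains and losses. Under 6 mg/L B9, 84 members were lower in their mean, with a summed change of -9.24 percentage points, while 16 were higher and gained 3.82 points. Under 8 mg/L paclobutrazol, 71 members summed to -5.96 points and 29 gained 4.99 points. Under 15 g/L mannitol the 56 higher members gained 5.31 points and the 44 lower ones summed to -1.31 points.

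A single gene had the largest loss in most treatments, while most of the summed loss lay in other members. LOC116203877, the most abundant gene of CK, had the largest fall of any member in both paclobutrazol and both B9 conditions and under 2.5 g/L mannitol, at -0.880 and -1.86 points under 6 and 8 mg/L paclobutrazol, -1.41 and -0.863 points under 6 and 8 mg/L B9, and -0.666 points under mannitol. In plants 1 and 2 of 6 mg/L paclobutrazol the fall was -0.616 and -1.15 points. Without LOC116203877 the net change under 8 mg/L paclobutrazol turned from -0.972 to 0.888 points. The net change kept its sign in the other treatments, at -4.02 points under 6 mg/L B9 in place of -5.42. The largest gain under 8 mg/L paclobutrazol was that of LOC116205967, with 2.49 points.

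**Figure D2:**
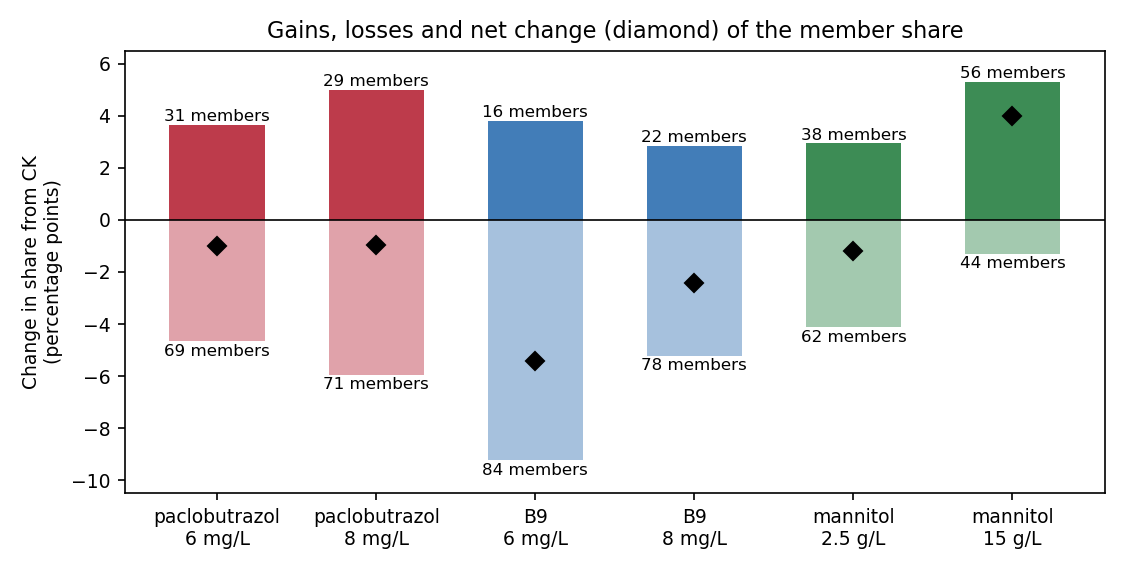
Change in the share of counts from CK (y axis, percentage points) in each treatment (x axis): bars above 0 sum the members with a higher mean CPM, bars below 0 those with a lower one, with their numbers, and diamonds mark the net change. Under 6 mg/L B9 the loss of -9.24 points stands against a gain of 3.82 points, while under 8 mg/L paclobutrazol loss and gain are of like size (-5.96 and 4.99 points).

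In the libraries, the members lay on both sides of CK in all treatments. Under 6 mg/L B9, 73 members had both libraries below both CK libraries and 13 had both above, where 39.2% and 30.8% of all tested genes did so. Under 8 mg/L B9 these were 65 below and 14 above (39.3% and 32% of all genes). Under 8 mg/L paclobutrazol they were 52 below and 17 above (41.4% and 30.1%), and under 6 mg/L paclobutrazol 27 below and 6 above (30.6% and 15.8%). Mannitol gave 48 below and 25 above at 2.5 g/L (32.7% and 22.3%), and 27 below and 34 above at 15 g/L (42.5% and 14.8%). Because CK chose the members, nothing is read from these counts.

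At 6 mg/L paclobutrazol, plants 1 and 2 were unlike in most members. The median absolute log2 difference in CPM between the plants was 1.02 over the members, against 0.647 over all genes, and 53 members differed more than 2-fold. In the other 6 conditions that median was between 0.154 and 0.392, and 12 members differed so much under 6 mg/L B9 and 1 in each of the others. Plant 1 of 6 mg/L paclobutrazol held 86 of the members among its own 100 most abundant genes and plant 2 held 52. The levels of single genes at this dose are therefore given by plant, and means of this dose with the values of its plants, and leaf RNA does not tell apart fewer cells of a type from less RNA per cell.

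**Figure D3:**
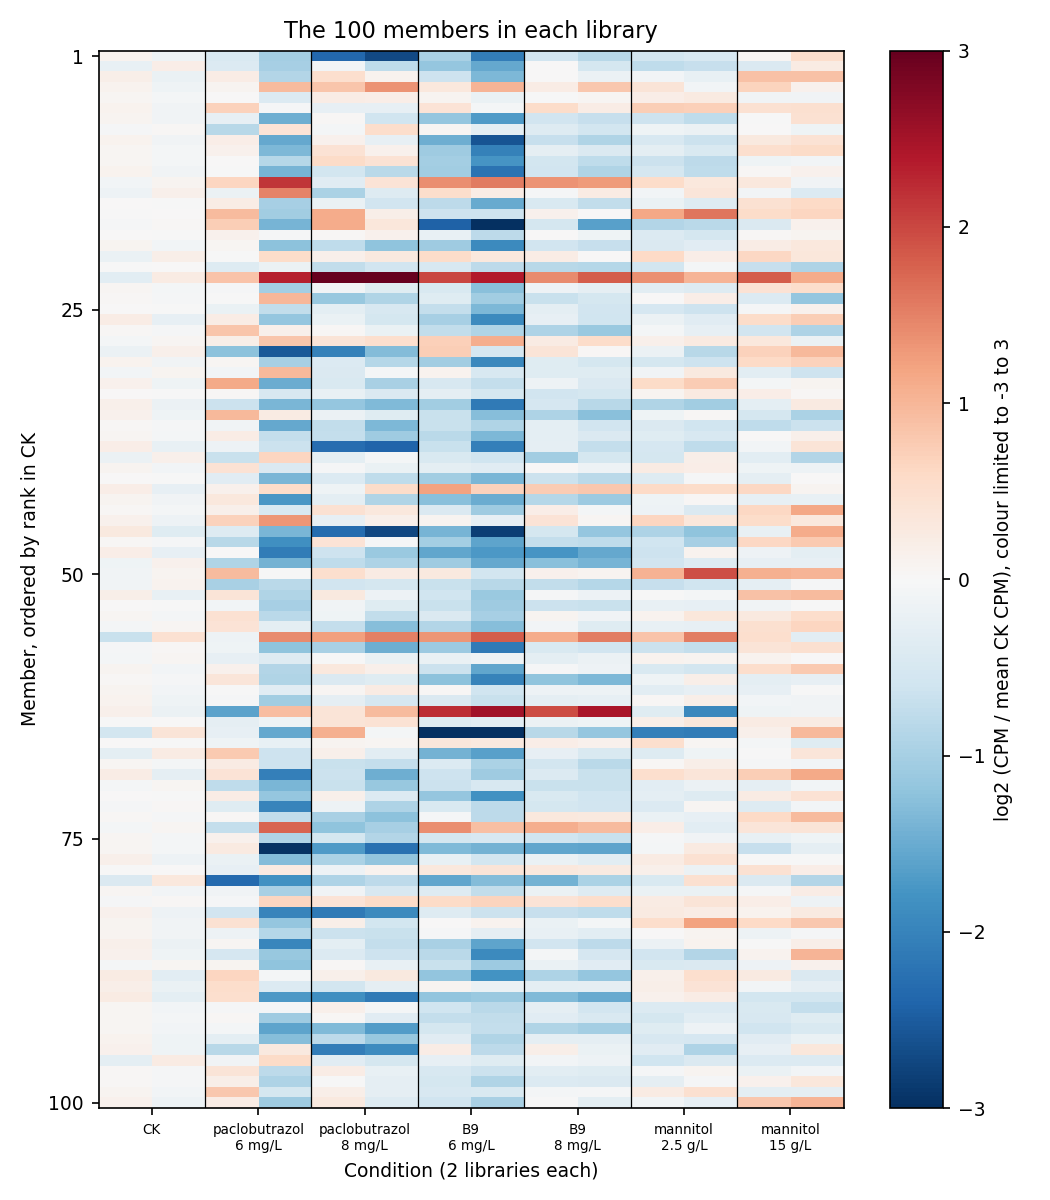
Log2 ratio of each member's CPM in a library to its mean CPM in CK (colour, limited to -3 to 3), with members ordered by rank in CK from 1 at the top to 100 (y axis) and the 14 libraries by condition (x axis). The columns of 6 mg/L paclobutrazol differ between plants (53 members more than 2-fold apart), those of 6 mg/L B9 are mostly blue (84 members lower in their mean), and LOC116205967, at rank 22, is red in all 12 treated libraries.

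Most members stayed among the most abundant genes. By condition mean, 86 members were still among the top 100 genes under 15 g/L mannitol and 85 under 2.5 g/L mannitol. Under paclobutrazol 75 stayed at 6 mg/L (86 in plant 1 and 52 in plant 2) and 66 at 8 mg/L, and under B9 59 stayed at 6 mg/L and 67 at 8 mg/L. Between the CK plants, 89 of the 100 genes chosen in one were in the top 100 of the other. Most that left did not go far by condition mean. In the top 200 there remained 84 members under 6 mg/L B9 and between 92 and 100 in the other treatments. Taken by plant, 97 and 75 remained there under 6 mg/L paclobutrazol and 92 and 78 under 6 mg/L B9.

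In all 7 conditions 51 members were in the top 100, and 39 were in the top 100 of every one of the 14 libraries. Of the members at rank 1 to 20 in CK, 19 stayed in the top 100 of all 6 treatments, the exception being LOC116194869, which stood at rank 281 under 6 mg/L B9. Of those at rank 81 to 100, 2 stayed throughout, LOC116194515 and LOC116203473. The 5 members found in the top 100 of no treatment, LOC116202194, LOC116205657, LOC116212659, LOC116213644 and LOC116195124, had ranks from 92 to 97 in CK.

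The order within the list moved most under 6 mg/L B9. The median absolute change of rank from CK was 37 there, 16.5 and 19 under 6 and 8 mg/L paclobutrazol, 19.5 under 8 mg/L B9, and 13 and 12 under 2.5 and 15 g/L mannitol. Taken by plant, it was 11.5 and 42 under 6 mg/L paclobutrazol. The same median between the plants of 1 condition was 6 in CK and 53.5 in 6 mg/L paclobutrazol. The member of lowest rank was LOC116216063 under 6 mg/L B9, at 4280, and under 2.5 g/L mannitol, at 447. By the mean it was LOC116208469 under 6 mg/L paclobutrazol at rank 510, while plant 1 had that gene at 672 and plant 2 had LOC116207718 lowest at 1150. It was LOC116213644 under 8 mg/L paclobutrazol at 674, LOC116187358 under 8 mg/L B9 at 349, and LOC116205657 under 15 g/L mannitol at 163.

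**Figure D4:**
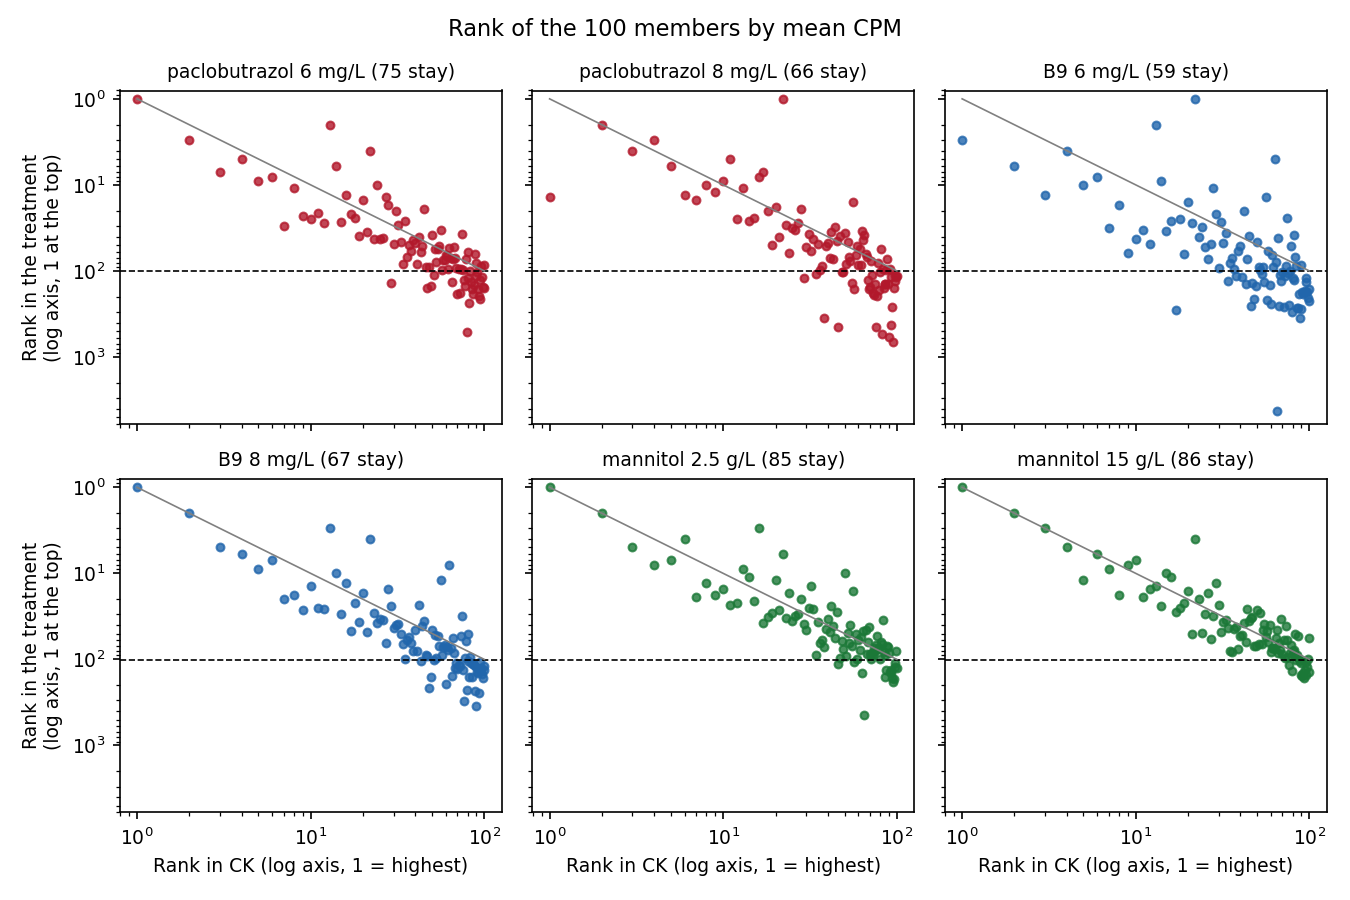
Rank of each of the 100 members by mean CPM in a treatment (y axis, log scale, 1 at the top) against its rank in CK (x axis, log scale); the grey line marks equal rank and the dashed line rank 100. Between 59 (6 mg/L B9) and 86 (15 g/L mannitol) members stay above the dashed line, and LOC116216063 lies at rank 4280 under 6 mg/L B9.

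The vacated places were taken by 74 other genes over the 6 treatments. Of these, 7 entered the top 100 under both doses of paclobutrazol and of B9, and LOC116196648 and LOC116213630 entered in all 6 treatments. LOC116213630, at rank 205 in CK with 554 and 382 CPM, was at 1795 and 5140 CPM under 6 mg/L paclobutrazol and at 2134 and 3842 CPM under 8 mg/L. It had 1877 and 1651 CPM under 6 mg/L B9, 1681 and 1784 under 8 mg/L B9, 1633 and 1162 under 2.5 g/L mannitol, and 1522 and 879 under 15 g/L mannitol. All 12 treated libraries thus lay above CK.

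Some entrants came from far down the list, and 13 of them had a rank beyond 1000 in CK. By condition mean LOC116214825 was the most abundant entrant under 8 mg/L paclobutrazol and 6 mg/L B9, where its mean was 3510 and 6212 CPM (ranks 17 and 7) against 131 CPM in CK (rank 1342). Under 6 mg/L B9 it had 6566 and 5859 CPM, but under 8 mg/L paclobutrazol it had 1655 and 5365, so its place there rested on plant 2, and LOC116195644 with 3350 CPM and LOC116213630 with 2134 CPM were above it in plant 1. LOC116200065 was by mean the most abundant entrant under 6 mg/L paclobutrazol and 8 mg/L B9. It had 57.4 and 39.5 CPM in CK, 3743 and 3246 under 8 mg/L B9 and 6096 and 2857 under 6 mg/L B9. Under 6 mg/L paclobutrazol its place rested on plant 2, with 252 CPM in plant 1 and 7683 in plant 2.

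Under mannitol the most abundant entrants were LOC116189230 at 2.5 g/L and LOC116195644 at 15 g/L. LOC116189230 stood just outside the list in CK, at rank 108, and had 1541 and 1657 CPM under 2.5 g/L mannitol against 865 and 682 in CK. LOC116195644, at rank 118 in CK with 575 and 826 CPM, had 3335 and 4260 under 15 g/L mannitol and 3350 and 2089 under 8 mg/L paclobutrazol. It was at 172 and 109 CPM under 6 mg/L B9, so it lay above CK in some treatments and below it in others. No test of this gene is given here.

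The most abundant gene of CK, LOC116203877 (1039 bp), had 24318 and 20665 CPM there. It had 16334 and 11041 CPM under 6 mg/L paclobutrazol, 4367 and 3431 at 8 mg/L, 11473 and 5372 under 6 mg/L B9, and 15063 and 12660 under 8 mg/L B9. Under mannitol it had 15461 and 16203 CPM at 2.5 g/L and 23322 and 32182 at 15 g/L. It was thus below CK in 10 of 12 treated libraries and lowest under 8 mg/L paclobutrazol, where it fell from rank 1 to 14, yet by condition mean it remained the top gene of 4 treatments. By library, LOC116209490 was first in plant 2 of 6 mg/L paclobutrazol and LOC116204098 in plant 1 of 8 mg/L B9. On the log2 scale of the edgeR fit it was lower under paclobutrazol than under mannitol by the mean of both doses (log2 difference -1.50, SE 0.31, adjusted p = 0.0108). Against B9 the paclobutrazol difference was -0.50 (SE 0.30, adjusted p = 0.294).

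LOC116204098 and LOC116203120 followed at rank 2 and 3. LOC116204098 (1508 bp) had 13702 and 18198 CPM in CK, 7084 and 5509 under 6 mg/L B9, and 9465 and 9946 under 2.5 g/L mannitol, and from 7970 to 18916 in the other 8 libraries. LOC116203120 (1502 bp) had 9006 and 7020 CPM in CK, 5212 and 3144 under 6 mg/L B9, and 14822 and 14628 under 15 g/L mannitol. Neither passed the test between chemicals (smallest adjusted p of LOC116203120 0.0587, B9 against mannitol).

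Of ranks 4 to 10, LOC116215619, LOC116205580 and LOC116188574 stayed within the top 13 by the mean of every treatment. By plant, LOC116188574 was at rank 11 and 23 under 6 mg/L paclobutrazol and at 14 in plant 1 of 15 g/L mannitol. LOC116205580 was at rank 14 in plant 1 of 8 mg/L paclobutrazol. LOC116215619 (3582 bp), with 5443 and 4626 CPM in CK, reached 9035 and 12797 under 8 mg/L paclobutrazol. LOC116205580, with 5130 and 4400 CPM in CK, reached 7923 and 7768 under 2.5 g/L mannitol. LOC116188574, with 5081 and 4646 CPM in CK, stayed between 3684 and 5833 in all treated libraries.

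LOC116211744, LOC116189511 and LOC116204457 (ranks 7, 9 and 10) shared low values under 6 mg/L B9 and in plant 2 of 6 mg/L paclobutrazol. LOC116189511 (1472 bp) had 4551 and 3970 CPM in CK, 4912 and 1464 under 6 mg/L paclobutrazol, 4624 and 3583 at 8 mg/L, 1543 and 713 under 6 mg/L B9, and 2636 and 2261 under 8 mg/L B9. Under mannitol it had 3077 and 2716 CPM at 2.5 g/L and 5231 and 5708 at 15 g/L. All 4 B9 libraries lay below the mannitol libraries, and the difference passed the threshold (log2 difference -1.30, SE 0.36, adjusted p = 0.0489).

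LOC116205967 (1018 bp) became the top gene of 2 treatments by condition mean. It was at rank 22 in CK, with 2258 and 3325 CPM. It had 5082 and 14115 CPM under 6 mg/L paclobutrazol, 24153 and 31262 at 8 mg/L, 11112 and 14566 under 6 mg/L B9, and 7416 and 9887 under 8 mg/L B9. Under mannitol it had 7187 and 5690 CPM at 2.5 g/L and 9771 and 6072 at 15 g/L. All 12 treated libraries lay above CK, and the gene was first in both plants of 8 mg/L paclobutrazol and in plant 2 of 6 mg/L B9, while LOC116203877 was first in plant 1 there. Paclobutrazol exceeded mannitol by 1.24 on the log2 scale (SE 0.36, adjusted p = 0.0328), a call kept in 9 of 17 alternative settings.

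LOC116209490 (1259 bp) stood out under B9 and in plant 2 of 6 mg/L paclobutrazol. It had 3776 and 4200 CPM in CK, 6230 and 17760 under 6 mg/L paclobutrazol, 3158 and 5267 at 8 mg/L, 10479 and 11754 under 6 mg/L B9, and 10180 and 9617 under 8 mg/L B9. Under mannitol it had 5797 and 4943 CPM at 2.5 g/L and 5007 and 3678 at 15 g/L. The B9 libraries lay above all CK and mannitol libraries, and the log2 difference from mannitol, 1.07 (SE 0.34, adjusted p = 0.0654), did not pass the threshold.

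**Figure D5:**
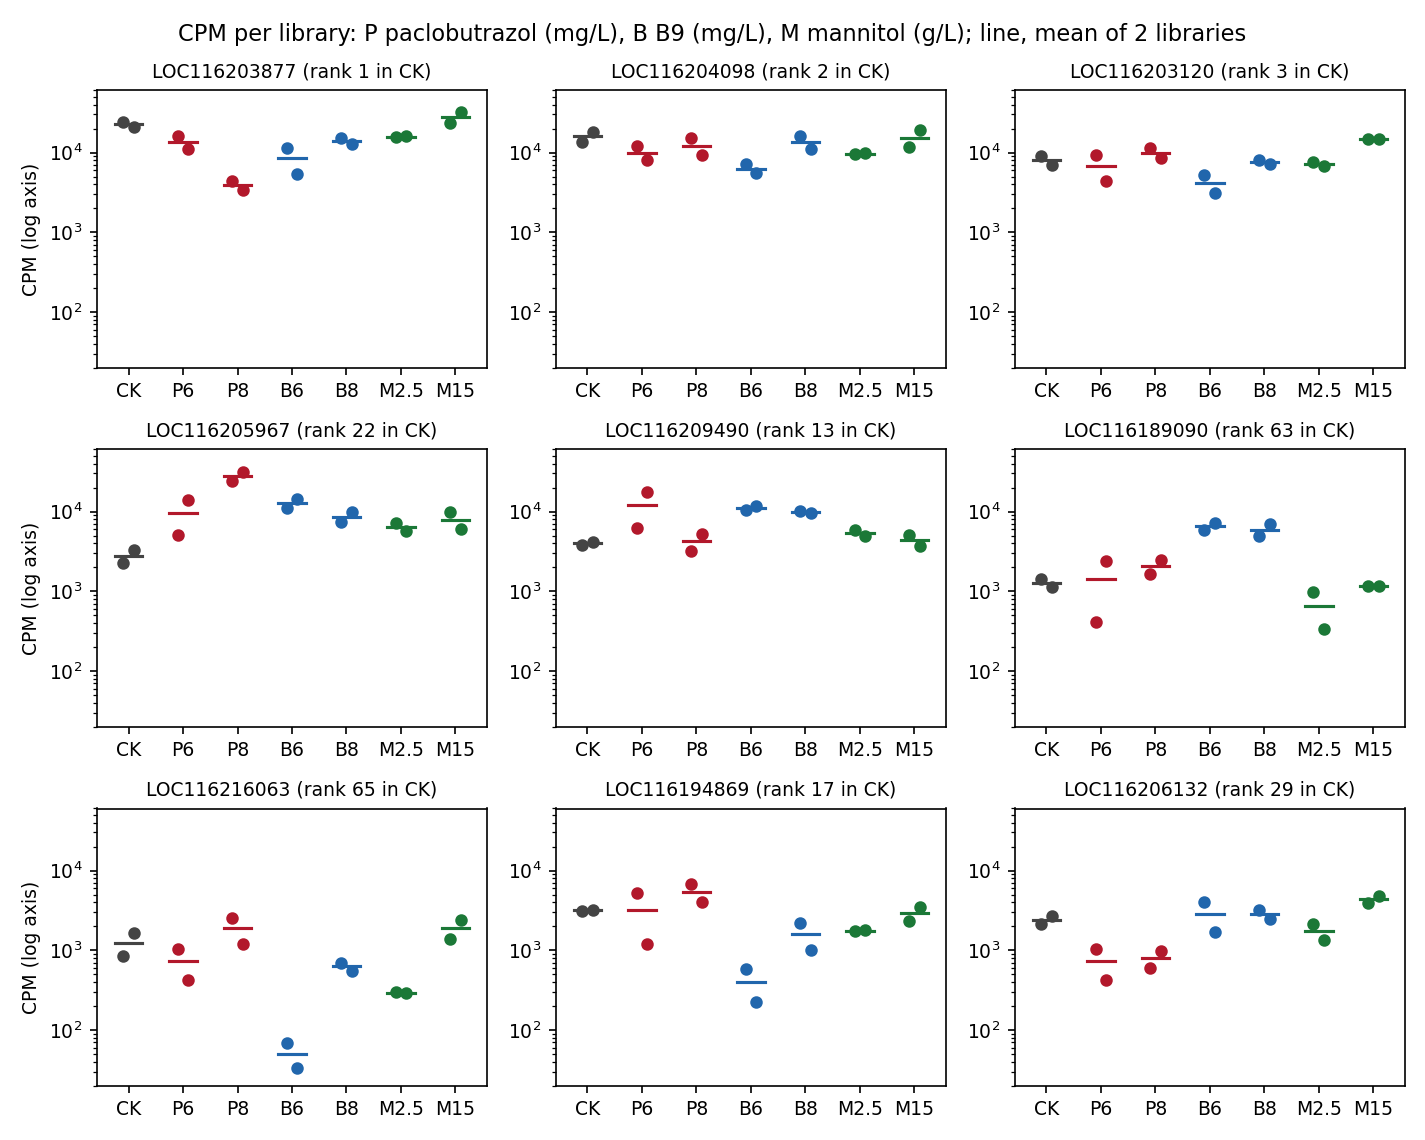
CPM of 9 members in each library (y axis, log scale; points are libraries and lines means of 2) by condition (x axis; P, B and M stand for paclobutrazol, B9 and mannitol with the dose in mg/L, mg/L and g/L). LOC116203877 is lowest under 8 mg/L paclobutrazol (4367 and 3431), LOC116205967 is highest there (24153 and 31262), LOC116189090 is highest under B9 and LOC116216063 is lowest under 6 mg/L B9 (67.7 and 33.3).

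CK was not a side of the comparisons between chemicals, but it chose the members compared. A chemical nearer CK can thus stand higher in their levels, which was not tested apart. Calling a member required an absolute log2 difference over 1 together with an adjusted p under 0.05, by the quasi-likelihood test of edgeR over all 19478 genes. Paclobutrazol against B9 called 8 members higher and 1 lower, where 3.72% and 2.5% of all genes were called. Paclobutrazol against mannitol called 1 higher and 8 lower (6.2% and 5.54% of all genes), and B9 against mannitol called 1 higher and 14 lower (2.29% and 2.9%). The median log2 difference of the members was 0.32 for paclobutrazol against B9, -0.26 for paclobutrazol against mannitol and -0.57 for B9 against mannitol, while that of all genes was -0.02, 0.00 and 0.02. For B9 against mannitol 85 members had a negative log2 difference, beside 48.3% of all genes. By the adjusted p alone, 16 members passed for paclobutrazol and 23 for B9 against mannitol, where 26.5% and 9.79% of all genes did. In at least 1 of these comparisons 28 members were called. The share of all genes called in at least 1 was not computed, so nothing is read from this count. LOC116208469 was the only member called lower under both paclobutrazol and B9 than under mannitol.

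The calls depended on single libraries and on the tool. Leaving out 1 library at a time gave 0 to 7 calls for B9 against mannitol in place of 15. The share of all genes called fell as well, from 5.19% to between 0% and 2.16%. No member was called in 6 of 8 cases, where at most 0.11% of all genes were called. These left out either plant of 8 mg/L B9 or of 15 g/L mannitol, or plant 2 of 6 mg/L B9 or 2.5 g/L mannitol. There were 3 calls without plant 1 of 6 mg/L B9 (0.599% of all genes) and 7 without plant 1 of 2.5 g/L mannitol (2.16%). DESeq2 called 26 on all libraries (10.5% of all genes). For paclobutrazol against mannitol, leaving out 1 library gave 3 to 20 calls in place of 9, beside 3.58% to 22% of all genes in place of 11.7%. There were 20 without plant 1 of 6 mg/L paclobutrazol (22% of all genes). There were 5 and 3 without plants 1 and 2 of 8 mg/L paclobutrazol (8.8% and 4.65%). Without plant 2 of 2.5 g/L mannitol there were 3 (5.05%), and without plant 2 of 15 g/L mannitol 4 (3.58%). For paclobutrazol against B9, leaving out 1 library gave 5 to 18 in place of 9, beside 3.13% to 9.89% of all genes in place of 6.22%. There were 18 without plant 2 of 6 mg/L paclobutrazol (9.89%) and 5 without plant 2 of 8 mg/L B9 (3.13%). Without both plants of 6 mg/L paclobutrazol, a fit added after seeing the data, the 3 comparisons called 19 (paclobutrazol against B9), 20 (paclobutrazol against mannitol) and 25 (B9 against mannitol) members, beside 11.1%, 20.4% and 11.1% of all genes.

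Members lower under B9 made up most of the calls. LOC116216063 (960 bp, rank 65) had 845 and 1624 CPM in CK, 1033 and 424 under 6 mg/L paclobutrazol, 2568 and 1188 at 8 mg/L, 67.7 and 33.3 under 6 mg/L B9, and 698 and 554 under 8 mg/L B9. The mannitol libraries had 296 and 287 CPM at 2.5 g/L and 1376 and 2414 at 15 g/L. The 6 mg/L B9 libraries were the lowest of all by far, and the gene ranged from rank 38 under 8 mg/L paclobutrazol to rank 4280. It was higher under paclobutrazol than under B9 (log2 difference 2.77, SE 0.41, adjusted p = 0.00382), a call kept in all 17 alternative settings. It was lower under B9 than under mannitol (log2 difference -2.11, SE 0.40, adjusted p = 0.0228), a call kept in 10 of 17. The B9 and mannitol plants of the lower dose both lay below those of the higher dose.

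LOC116194869 (4446 bp, rank 17) had 3091 and 3220 CPM in CK, 5233 and 1209 under 6 mg/L paclobutrazol, 6794 and 4004 at 8 mg/L, 585 and 225 under 6 mg/L B9, and 2185 and 1018 under 8 mg/L B9. In the mannitol plants it was at 1725 and 1811 CPM at 2.5 g/L and 2339 and 3448 at 15 g/L. Of the paclobutrazol libraries, only plant 2 of 6 mg/L overlapped B9, while both plants of 2.5 g/L mannitol lay within the range of B9. Paclobutrazol exceeded B9 by 2.42 on the log2 scale (SE 0.49, adjusted p = 0.0121).

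LOC116199890 (2763 bp, rank 88) was low in all 4 B9 libraries. It had 1119 and 754 CPM in CK, 412 and 272 under 6 mg/L B9, and 492 and 419 under 8 mg/L B9. It had 1460 and 903 CPM under 6 mg/L paclobutrazol, 1038 and 1153 at 8 mg/L, 1040 and 1330 under 2.5 g/L mannitol, and 1123 and 695 under 15 g/L mannitol. No B9 library overlapped any other library. Paclobutrazol exceeded B9 by 1.59 on the log2 scale (SE 0.25, adjusted p = 0.00447), a call kept in all 17 alternative settings. B9 lay below mannitol by a log2 difference of -1.44 (SE 0.24, adjusted p = 0.0192), a call kept in 11 of 17.

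LOC116199833 (3216 bp, rank 48) showed low values under B9 as well, with 520 and 458 CPM at 6 mg/L and 448 and 530 at 8 mg/L, against 1757 and 1290 in CK. Mannitol-treated plants had 997 and 1648 CPM at 2.5 g/L and 1364 and 1247 at 15 g/L, and under paclobutrazol 1528 and 354 at 6 mg/L and 989 and 703 at 8 mg/L. B9 lay below mannitol by a log2 difference of -1.48 (SE 0.37, adjusted p = 0.0409), a call kept in 9 of 17 alternative settings. Of the other calls against mannitol, LOC116199686 and LOC116213450 had their highest means under 2.5 g/L mannitol, with 7143 and 9827 CPM and 3131 and 5773 CPM, against 3198 and 3226 and against 1412 and 1610 in CK. The remaining 8 members called lower under B9 than mannitol had log2 differences between -1.34 (LOC116189729) and -1.004 (LOC116205262).

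LOC116189090 (1865 bp, rank 63) was the only member called higher under B9 than under mannitol. It had 1415 and 1116 CPM in CK, 5832 and 7210 under 6 mg/L B9, and 4915 and 6933 under 8 mg/L B9. The plants on mannitol had 985 and 332 CPM at 2.5 g/L and 1152 and 1177 at 15 g/L. Paclobutrazol gave 413 and 2422 CPM at 6 mg/L and 1663 and 2439 at 8 mg/L. All 4 B9 libraries lay above the other 10, and the gene moved up to rank 5 and 8 under 6 and 8 mg/L B9. The log2 difference of B9 from mannitol was 2.78 (SE 0.54, adjusted p = 0.0246), a call kept in 10 of 17 alternative settings. That of paclobutrazol from B9, -1.75 (SE 0.52, adjusted p = 0.0508), lay just outside the threshold.

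LOC116206132 (1594 bp, rank 29) was the only member called lower under paclobutrazol than under B9. It had 2160 and 2693 CPM in CK, 1029 and 419 under 6 mg/L paclobutrazol, 594 and 990 at 8 mg/L, 4021 and 1708 under 6 mg/L B9, and 3198 and 2469 under 8 mg/L B9. Its mannitol values were 2146 and 1356 CPM at 2.5 g/L and 3925 and 4786 at 15 g/L. The 4 paclobutrazol libraries were the 4 lowest of all. Paclobutrazol lay below B9 by a log2 difference of -1.85 (SE 0.37, adjusted p = 0.0113) and below mannitol by the same value (SE 0.37, adjusted p = 0.00995).

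LOC116210545 (12593 bp, rank 82) followed the same order against mannitol. It had 1110 and 908 CPM in CK, 675 and 256 under 6 mg/L paclobutrazol, 230 and 266 at 8 mg/L, 771 and 642 under 6 mg/L B9, and 627 and 590 under 8 mg/L B9. With mannitol there were 1214 and 1186 CPM at 2.5 g/L and 1086 and 1218 at 15 g/L, and no mannitol library overlapped paclobutrazol or B9. Paclobutrazol lay below mannitol by a log2 difference of -1.78 (SE 0.25, adjusted p = 0.00351). LOC116208469 (2327 bp, rank 79) had 786 and 1322 CPM in CK, 209 and 297 under 6 mg/L paclobutrazol, 559 and 608 at 8 mg/L, 360 and 426 under 6 mg/L B9, and 395 and 543 under 8 mg/L B9. It had 765 and 1461 CPM under 2.5 g/L mannitol and 777 and 571 under 15 g/L mannitol, so plant 2 of 15 g/L mannitol overlapped paclobutrazol. Its log2 difference from mannitol was -1.14 (SE 0.27, adjusted p = 0.0170) under paclobutrazol and -1.07 (SE 0.27, adjusted p = 0.0409) under B9.

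LOC116187061 (2778 bp, rank 27) separated the growth retardants as well, with 4446 and 2802 CPM under 6 mg/L paclobutrazol and 2580 and 2194 under 8 mg/L, against 1516 and 1335 under 6 mg/L B9 and 1332 and 1169 under 8 mg/L B9. CK had 2574 and 2448 CPM, and no paclobutrazol library overlapped B9 (log2 difference 1.21, SE 0.18, adjusted p = 0.00384). Of the other members called higher under paclobutrazol than under B9, LOC116201865, LOC116189729, LOC116214166 and LOC116188394 had log2 differences between 1.09 and 1.27.

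Under mannitol, LOC116187061 was among the members below CK at 15 g/L, with 1684 and 1312 CPM. LOC116198979 (rank 21) had 1754 and 1492 CPM there against 2826 and 2880 in CK, LOC116210613 (rank 24) 2059 and 1213 against 2809 and 2647, and LOC116207454 (rank 91) 654 and 548 against 948 and 859. LOC116209265 (5525 bp, rank 69) was above CK at 15 g/L, with 1991 and 2613 CPM against 1394 and 994, and was called lower under paclobutrazol than under mannitol (log2 difference -1.36, SE 0.42, adjusted p = 0.0402). At 2.5 g/L, LOC116200701 (rank 34) had 1038 and 943 CPM against 2170 and 1706 in CK.

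LOC116204580 (2374 bp, rank 56) had 868 and 1881 CPM in CK and both plants above them in 4 treatments. It had 3233 and 3933 CPM under 8 mg/L paclobutrazol, 3444 and 4844 CPM with B9 at 6 mg/L, 2971 and 3967 with B9 at 8 mg/L, and 2501 and 3972 under 2.5 g/L mannitol. Under 6 mg/L paclobutrazol, with 1241 and 3702 CPM, and under 15 g/L mannitol, with 1940 and 1111, it overlapped CK. LOC116188517 (rank 45) had 2652 and 4110 CPM under 6 mg/L paclobutrazol against 1817 and 1481 in CK. LOC116196849 (6200 bp, rank 8), with 4191 and 4374 CPM in CK, ranged from 2417 to 6210 in the treated libraries, both of these under paclobutrazol.

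Several members were low under 8 mg/L paclobutrazol, and some of them under B9 as well. LOC116209479 (1369 bp) had 329 and 249 CPM there, against 2012 and 1269 in CK and 1265 and 630 under 6 mg/L, and 620 and 231 under 6 mg/L B9. LOC116200666 (958 bp) had 359 and 326 CPM, against 1996 and 1477 in CK and 1551 and 1116 under 6 mg/L, and its lowest other library was plant 2 of 6 mg/L B9 with 418. LOC116213644 (4132 bp) had 197 and 224 CPM, against 904 and 754 in CK. LOC116187358 (11087 bp) had 254 and 209 CPM, against 1083 and 741 in CK, 399 and 424 under 6 mg/L B9, 361 and 319 under 8 mg/L B9, and 276 in plant 2 of 6 mg/L paclobutrazol. In each of these 4 genes both plants of 8 mg/L paclobutrazol lay below all CK libraries. LOC116207718, the longest member (14981 bp), had 339 and 236 CPM against 1149 and 1062 in CK and 1325 and 141 in the plants of 6 mg/L paclobutrazol, and from 372 to 438 under B9.

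No member was called between the doses of any chemical in edgeR's test, where 1.49%, 0.00513% and 0% of all genes were called for paclobutrazol, B9 and mannitol. At an unadjusted p under 0.05, 24, 16 and 23 members passed, beside 23.5%, 4.69% and 13.4% of all genes. DESeq2 on all libraries called 14, 1 and 11 members, beside 7.32%, 0.457% and 2.54% of all genes. The nearest to the threshold was LOC116200666 between the doses of paclobutrazol (log2 difference -1.98, SE 0.44, adjusted p = 0.0526), followed by LOC116212803 (1.45, SE 0.33, adjusted p = 0.0582). LOC116212803 (2184 bp) had 880 and 440 CPM under 6 mg/L and 2094 and 1543 under 8 mg/L paclobutrazol. It also had 1046 and 794 CPM under 2.5 g/L and 2404 and 2696 under 15 g/L mannitol. The standard error of a difference between doses had a median of 0.36 over the members. The paclobutrazol count changed with the plants of 6 mg/L, as 9 members were called without plant 1 and 18 without plant 2, and so did the count over all genes (3.68% and 19.7%).

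Against CK the same test called 1 member at the lower dose of paclobutrazol (LOC116208469, lower), 8 at its higher dose, and for B9 7 at 6 mg/L and 1 at 8 mg/L (LOC116205725, lower), beside 4%, 8.1%, 6.73% and 1.58% of all genes. Under 2.5 and 15 g/L mannitol it called 0 members, beside 0.0565% and 0.0257% of all genes, with 9 and 14 members at an unadjusted p under 0.05 (15.5% and 11.6% of all genes) and 3 and 2 called by DESeq2 on all libraries (4.62% and 2.23%). Leaving out any 1 of the 4 libraries compared left 1 library in a condition, so the size of those counts is not read. Calls under 8 mg/L paclobutrazol and both doses of B9 then fell, in the members and over all genes alike. The count under 6 mg/L paclobutrazol depended on which of its plants was kept, also over all genes. The median log2 difference of the members from CK was -0.10, -0.12, -0.61, -0.25, -0.07 and 0.28 in the order of treatments used above. With library totals in place of TMM these were -0.27, -0.28, -0.70, -0.36, -0.15 and 0.07, while the median of all genes moved to -0.16, -0.14, -0.08, -0.08, -0.05 and -0.18. The members had been chosen on the CK libraries that enter all 6 comparisons, so these values are a description.

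The members differed from other expressed genes in properties the rule did not use. Their median gene length, introns included, was 2325.5 bp, from 613 to 14981 bp, against 3202 bp for the 17701 protein-coding genes with a mean count of at least 10, and 69 members were shorter than that. RefSeq lists 1 transcript for 88% of the members and for 65.0% of those genes. No members were next to each other in the order of annotated genes. CPM is not a level per length, and of the 100 genes highest in CK by CPM per kb of gene, 72 were members.

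The differences went with gene length in some comparisons. Across the 100 members, Spearman's rho between length and the log2 difference was -0.56 between the doses of mannitol, -0.47 between the doses of B9, 0.45 for 2.5 g/L mannitol against CK and -0.39 for 15 g/L mannitol against CK. Over all genes the values were -0.10, -0.25, 0.07 and -0.04. For paclobutrazol against B9, paclobutrazol against mannitol and B9 against mannitol, rho was -0.06, -0.15 and -0.08 across the members. Over all genes it was -0.10, -0.32 and -0.28 there. Under 8 mg/L paclobutrazol against CK it was -0.07 across the members and -0.33 over all genes. Genes of a library are not independent replicates, and the part of length in the calls above was not tested.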

How the data were processed

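Leaf RNA of 14 seedlings, 2 plants for each of 7 conditions, was sequenced from total RNA with a NEBNext Ultra kit. Per the methods of the study, the authors passed reads through quality control, aligned them by HISAT2 to the reference genome of the species, kept only uniquely placed reads and assigned these to genes by featureCounts. Deposited were the raw counts of 27893 genes in 14 columns, not normalized, and every column was used. The paper cites the genome without an assembly name, and program versions and the strand setting are not given in the sources used here. Counts of overlapping and antisense genes and of near-identical gene copies are therefore uncertain.

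CPM were computed from library totals of 15790717 to 28385703 counts, and the 100 genes of highest mean CPM in CK were taken as members. Their counts had a median of 30015 over members and libraries, and the lowest was 711. Differences were tested in R 4.3.3 with edgeR 4.0.16 (filterByExpr with a minimum count of 10, TMM, quasi-likelihood test) in 1 fit of 7 condition means over all libraries. It had 7 residual degrees of freedom and a common biological coefficient of variation of 32.2%. Adjustment was by Benjamini-Hochberg over 19478 genes within each comparison. Thresholds on fold and adjusted p follow the study, where DESeq2 was used. Shares between chemicals were compared by exact permutation tests written in Python 3.11.15 with numpy 2.4.6. The Wilson intervals came from scipy 1.17.1. Separate plants are replicates. The p-values of edgeR rest on a spread between plants estimated over all 7 conditions together. Those of the permutation tests rest on libraries that pool both doses of a chemical.

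Biotype, length and gene order came from the RefSeq table of the assembly ASM765513v2, which matched 27546 symbols and left 347 without a match. It was used for no coordinates. Planned searches of protein signatures, promoter motifs and photosynthesis genes, and the naming of members by such signatures, were not run because no product names or sequences were used here.

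Genes named by rule include the 10 members highest in CK. In each treatment they include the 3 most raised and 3 most lowered members with both libraries beyond both CK libraries. For comparisons without CK they include the 3 called members of largest difference in each direction. The 2 members of lowest rank per treatment, the genes at ranks 99 to 102 and the highest non-member of each treatment complete the rule. Other genes were named after their values were seen. The members, the lists and the tests were chosen with earlier results of these data known. Alternatives were DESeq2 1.42.0, other scalings, filters, fits and call rules, other choices of members, a replicate block and each library left out. A fit and a comparison without 6 mg/L paclobutrazol, and members chosen in 1 CK library and measured in the other, were added after seeing the data.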

Additional observations from a re-analysis of the deposited data

Results flagged for a closer look

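Several results stood out because groups moved in different directions or differed by test. Both libraries of 6 and 8 mg/L B9 and of 2.5 g/L mannitol lay below both CK libraries in the share of counts taken by the 100 members, divided by library totals, by -5.42, -2.41 and -1.19 percentage points in the mean, while both libraries of 15 g/L mannitol lay above, by 4.004 points. On TMM-scaled totals 8 mg/L B9 (21.1% and 19.9%) and 2.5 g/L mannitol (20.7% and 22.1%) overlapped CK (21.8% and 20.7%). There the paclobutrazol libraries lay above both CK libraries (23.8% and 22.3% at 6 mg/L, 23.0% and 22.3% at 8 mg/L). The differences between these treatments in their distance from CK were not tested.

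Of the members past the threshold in the test of the difference itself, at most 3 in each direction, those of largest log2 difference by edgeR, are given. Between paclobutrazol and B9 these were LOC116216063 by 2.77, LOC116194869 by 2.42, LOC116199890 by 1.59 and LOC116206132 by -1.85. Between paclobutrazol and mannitol these were LOC116205967 with 1.24, LOC116206132 with -1.85, LOC116210545 with -1.78 and LOC116203877 with -1.50. Between B9 and mannitol these were LOC116189090 with 2.78, LOC116216063 with -2.11, LOC116199833 with -1.48 and LOC116199890 with -1.44. Their values by library, errors and adjusted p stand in the report, and the plants of 6 mg/L paclobutrazol differed more than 2-fold in 53 members.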

How the results depend on the processing

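The share of the members relative to CK kept its sign under every alternative for both B9 doses and 15 g/L mannitol. On TMM-scaled totals it was 8.69% and 6.65% under 6 and 8 mg/L paclobutrazol (-4.38% and -4.22% on library totals), -3.55% under 8 mg/L B9 (-10.4%), 0.712% under 2.5 g/L mannitol (-5.18%) and 35.2% under 15 g/L mannitol (17.4%). Without the most abundant member it was 2.32% under 8 mg/L paclobutrazol and -3.20% under 2.5 g/L mannitol, and with members chosen by CPM per kb 1.07% and -8.43%. For 2.5 g/L mannitol it was -2.52% with members chosen in CK plant 1 and set against CK plant 2, and between -6.88% and -3.42% with single plants left out. Between chemicals, 50 members gave 3.10 points for paclobutrazol minus B9 and -4.45 points for B9 minus mannitol, both past the threshold.

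Counts of called members varied with the tool, the libraries in the fit and single libraries, and the cause was not tested. In the order 6 and 8 mg/L paclobutrazol, 6 and 8 mg/L B9, 2.5 and 15 g/L mannitol against CK (1, 8, 7, 1, 0 and 0), DESeq2 on all libraries called 6, 14, 33, 9, 3 and 2 (9.62%, 17.8%, 13.5%, 9.19%, 4.62% and 2.23% of all genes) and on only the libraries compared 2, 14, 35, 11, 5 and 8 (4.09%, 21.2%, 16.9%, 14.9%, 6.04% and 4.48%). EdgeR on only those libraries called 0, 14, 21, 10, 0 and 1 (0%, 19.9%, 14.8%, 12.8%, 0.00543% and 1.48%). Without 6 mg/L paclobutrazol, chosen after seeing the data, it called 14, 35, 11, 2 and 1 in the other 5 (19.3%, 15.2%, 12.6%, 3.04% and 1.19%). Leaving out a plant gave 0 to 31, 0, 0 to 1 and 0 for the first 4. Library size alone gave 3 for 6 mg/L paclobutrazol and 13 for 6 mg/L B9, and a minimum mean count of 50 gave 14 for 6 mg/L B9.

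Between doses of paclobutrazol, B9 and mannitol (0 each), DESeq2 called 14, 1 and 11 on all libraries (7.32%, 0.457% and 2.54% of all genes) and 4, 4 and 17 on those compared (2%, 1.31% and 4.66%). For paclobutrazol, library size alone gave 1 (1.73% of all genes) and the minimum of 50 gave 2 (2.04%). Leaving out a plant of 6 mg/L paclobutrazol raised the count in the members and over all genes. For mannitol the fit without 6 mg/L paclobutrazol gave 2 (0.917%). Between chemicals (9 for paclobutrazol against B9, 9 against mannitol, 15 for B9 against mannitol), edgeR on only the libraries compared called 3, 4 and 24 (2.8%, 3.34% and 11% of all genes) and without 6 mg/L paclobutrazol 19, 20 and 25 (11.1%, 20.4% and 11.1%). The adjusted p alone gave 16 for paclobutrazol and 23 for B9 against mannitol (26.5% and 9.79% of all genes). DESeq2 gave 26 for B9 against mannitol in both fits (10.5% and 11.9%). Leaving out a plant gave 5 to 18, 3 to 20 and 0 to 7 (3.13% to 9.89%, 3.58% to 22% and 0% to 2.16%). Of the 12 differences named between chemicals, 5 kept their call in all 17 alternatives and none changed sign. Those 5 all had paclobutrazol on 1 side, while the differences of B9 from mannitol kept their calls in 9 to 11 of 17.

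Deviations of same-numbered plants correlated from -0.29 to 0.39 over 21 pairs of conditions (median -0.05), with 6 above 0.1 and 7 below -0.1. Of the members, 69 were higher in plant 1 in CK, 77 and 70 under 6 and 8 mg/L paclobutrazol, and 84 and 77 under 6 and 8 mg/L B9. Under 2.5 and 15 g/L mannitol 50 and 33 were. The labels do not say whether same-numbered plants shared a factor. With the replicate block, 5, 16 and 0 members were called under 8 mg/L paclobutrazol, 6 mg/L B9 and 8 mg/L B9 against CK. The shares of all genes were 6.16%, 6.49% and 0.642%. Between the doses of paclobutrazol 1 member was called (1.13% of all genes).

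With 2 plants per condition, the median standard error over the members was 0.36 on the log2 scale against CK and 0.26 between chemicals, and depth was not varied.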
